A study of Mus musculus with 23 samples.

Results

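The Plagl1 imprinted domain lies on mouse chromosome 10 and was followed here through 3 genes, Plagl1, Hymai and Phactr2, taken by their symbols from the gene-level and allele-level count tables, which list 26183 genes. The samples were 23 whole mouse embryos collected at E13.5 in mid-gestation. Each had a 129 mother and a DBA father, so a read that covered a variant between the strains told the maternal (129) from the paternal (DBA) copy. The mothers were 129S6/SvEvTac mice carrying a Zfp57 deleted mutant allele. The fathers were heterozygous for that mutation after 12 generations of crossing to DBA/2J and are written DBA*. Embryos named M-Z+ and M-Z- came from Zfp57-/- mothers and so lacked maternal Zfp57. M-Z+ embryos kept a functional zygotic copy from the father, whereas M-Z- embryos, the Zfp57-/- embryos, lacked both. M+Z+ embryos had both maternal and zygotic Zfp57 and served as the control, and are labelled Zfp57-/+, as are the M-Z+ embryos. The allele tables head the M+Z+ embryos WT and the study writes them both as Zfp57+/- and as Zfp57+/+, so their exact genotype is not settled by the sources used here. There were 6 M+Z+, 3 M-Z+ and 4 M-Z- female embryos, and 4, 3 and 3 male embryos. All groups came from 129 mothers and DBA* fathers, and the deletion was present in all cells rather than in 1 tissue. The fathers were mainly, not wholly, DBA/2J, and the mutant allele came from 129 mice. Strain background may therefore differ between groups, which was not tested. M+Z+ embryos had other mothers than M-Z+ and M-Z- embryos, so effects of mother or litter cannot be told apart from maternal genotype. The litter of each embryo was not given, so p-values measure the spread between embryos, some of which may be littermates.

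In genomic imprinting, the DNA of a control region is methylated in only one parent's germ line, and the copy inherited from that parent is expressed differently from the other. At the Plagl1 domain the mark is laid down in the oocyte. ZFP57, a KRAB zinc finger protein, binds a methylated TGCCGC hexamer and keeps the mark through early development. Plagl1, also called Zac1, encodes a zinc finger transcription factor that restrains cell growth and is expressed from the paternal copy in the embryo. Hymai is a non-coding RNA that starts beside Plagl1 in the same control region and is also paternally expressed. Phactr2 encodes a phosphatase and actin regulator, one of a family of proteins that bind protein phosphatase 1 and actin, and is known for expression biased to the maternal copy.

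On the mm9 build Plagl1 lay at chr10:12810638-12851501 on the plus strand, with 9 merged exons and 5340 exonic bases. Hymai lay at chr10:12810651-12815706 on the same strand, as 1 exon of 5056 bases. Hymai began 13 bases after Plagl1, and the genes shared 218 exonic bases, 4.08% of those of Plagl1 and 4.31% of those of Hymai. Phactr2 lay at chr10:12927523-13194202 on the minus strand, with 15 merged exons and 9042 exonic bases. Its nearer edge, the 3′ end of the gene, was 76.0 kb beyond the end of Plagl1, and transcription runs toward Plagl1.

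The stretches of sequence around the starts are shown because they were searched for the letters that ZFP57 is known to bind. They were read from the mm9 genome on the strand of the gene, 5′ to 3′, and each is 250 bases long. Capitals mark TGCCGC or its reverse complement GCGGCA, searched on both strands, with no overlap between matches. The first covers the bases before the start of Plagl1 (chr10:12810388-12810637, plus strand). The second lies inside the first intron of Plagl1 and inside the Hymai exon (chr10:12810841-12811090, plus strand), a window placed after the positions of the matches were seen. The third covers the bases before the start of Phactr2 (chr10:13194203-13194452, minus strand).
Plagl1 upstream: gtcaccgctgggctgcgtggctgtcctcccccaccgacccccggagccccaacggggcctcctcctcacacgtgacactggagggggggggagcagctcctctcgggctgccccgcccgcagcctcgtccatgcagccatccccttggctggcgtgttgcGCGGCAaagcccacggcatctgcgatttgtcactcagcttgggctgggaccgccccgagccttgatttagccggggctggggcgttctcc
Plagl1 first intron and Hymai exon: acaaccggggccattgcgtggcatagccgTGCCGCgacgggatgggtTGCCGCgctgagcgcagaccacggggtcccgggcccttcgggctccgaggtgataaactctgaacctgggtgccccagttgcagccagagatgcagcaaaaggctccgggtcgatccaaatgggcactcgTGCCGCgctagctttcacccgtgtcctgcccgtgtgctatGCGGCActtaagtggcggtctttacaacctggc
Phactr2 upstream: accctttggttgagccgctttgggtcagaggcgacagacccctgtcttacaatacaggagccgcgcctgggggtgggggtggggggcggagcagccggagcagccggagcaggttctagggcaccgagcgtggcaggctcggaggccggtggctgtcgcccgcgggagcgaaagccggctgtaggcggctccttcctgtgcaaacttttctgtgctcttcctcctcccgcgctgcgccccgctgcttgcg
The stretch before Plagl1 held 1 match and 19 CpG sites, and 9.89% of 25891 genes held at least 1 match in the same upstream window. The intronic stretch held 4 matches and 22 CpG sites. In the same window after the start 11.96% of 25892 genes held at least 1 match and 0.0657% held at least 4. But this window was placed on the matches of Plagl1, so the shares do not tell how often a window chosen in this way would hold them. The stretch before Phactr2 held 22 CpG sites and no match, so these letters are not in that window. The median number of CpG sites was 8 in both kinds of window.

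Sequencing depth was 15.2 to 24.1 M (1000000) gene-assigned reads per embryo (median 17.4 M), and 2.46 to 3.95 M reads per embryo were assigned to an allele (median 2.78 M). Of the allele-assigned reads, 43.6 to 48.5% were paternal. Zfp57 counts, the check of the M-Z- label, were 25.5 to 35.3 CPM (counts per 1000000 gene-assigned reads) in M-Z- embryos and 52.7 to 99.1 CPM in all other embryos, without overlap. M-Z+ embryos, at 66.6 to 78.6 CPM, lay inside the M+Z+ range, so these counts do not check M-Z+ against M+Z+ labels. In the gene-level fit Zfp57 fell by 1.02 ± 0.14 (log2, SE; edgeR adjusted p = 0.000399) in female and by 1.33 ± 0.12 (adjusted p = 4.69e-05) in male M-Z- embryos, where the difference was -1.28 without male M-Z- replicate 3 (adjusted p = 0.00015). Markers of liver, blood, neurons, muscle, heart, cartilage and epidermis were present in every group as in a whole embryo. The lung marker Sftpc did not exceed 1.53 CPM, and summed trophoblast and placenta markers did not exceed 0.428 CPM in any embryo. Summed liver markers (Afp and Alb, 2 of 2 detected) were 1451 to 3833 CPM in male M-Z- embryos against 3908 to 5853 CPM in the other males, without overlap, and neuronal markers (Tubb3 and Stmn2, 2 of 2 detected) were 528 to 567 against 580 to 625 CPM. The other marker sets overlapped between these males, and liver and neuronal sums overlapped in females. The share of all genes that separate male embryos in this way was not counted. The part of these markers in the male results was not tested, and in whole-embryo RNA a change in the number of cells of a type and a change in RNA per cell cannot be told apart. Libraries also differed in weight among the males. Without male M-Z- replicate 3 the genes called in the male M-Z- against M+Z+ comparison rose from 65 to 899 in expression, from 196 to 323 in maternal reads and from 189 to 328 in paternal reads. In male M-Z- against M-Z+ embryos expression calls rose from 25 to 376. Male M-Z- differences of the members, and of other named genes that were called, are also given without it.

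Plagl1 RNA was about 2-fold more abundant in M-Z- embryos than in M+Z+ embryos of both sexes, reads counted for Hymai also rose, and Phactr2 RNA fell. The rise of the mean Hymai level over M+Z+ embryos was no larger than evenly spread Plagl1 reads on the bases both genes share would give. In M-Z+ embryos none of the 3 genes differed from M+Z+ by the test. Calls came from edgeR's quasi-likelihood test with Benjamini-Hochberg adjustment over all genes tested, and needed an adjusted p below 0.05 together with a log2 difference of 0.5 or more in either direction.

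Plagl1 stood at 519, 617, 616, 555, 631 and 666 CPM in the 6 female M+Z+ embryos and at 627, 572 and 601 CPM in the 3 female M-Z+ embryos. The 4 female M-Z- embryos had 1289, 1122, 1173 and 1221 CPM. Every female M-Z- embryo was therefore above every other female embryo, while the M-Z+ values lay inside the range of the M+Z+ values. In males, Plagl1 was at 531, 558, 604 and 675 CPM in M+Z+, at 694, 629 and 611 CPM in M-Z+ and at 1101, 1203 and 1398 CPM in M-Z- embryos. The male M-Z- embryos were again above all the others, the highest of them being replicate 3. Group means were 601 ± 54 (SD, n = 6), 600 ± 28 (n = 3) and 1201 ± 71 (n = 4) CPM in females, and 592 ± 63 (n = 4), 645 ± 44 (n = 3) and 1234 ± 151 (n = 3) CPM in males.

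Plagl1 rose by 1.00 ± 0.06 (log2, SE; edgeR adjusted p = 2.12e-08) in female M-Z- against M+Z+ embryos. In males it rose by 1.10 ± 0.10 (2.14-fold; edgeR adjusted p = 5.25e-05), and by 1.03 without male M-Z- replicate 3 (adjusted p = 0.000106). All 3 members were called in each sex, against 0.563% of 16871 genes in females and 0.39% of 16664 in males. Against M-Z+ embryos of the same sex, the rise of Plagl1 was 1.01 ± 0.07 (edgeR adjusted p = 3.18e-07) in females and 1.00 ± 0.11 (adjusted p = 0.000438) in males, in a comparison that called 0.196% and 0.15% of all genes. Without male M-Z- replicate 3, when 376 genes in place of 25 were called in males, the male rise of Plagl1 was 0.92 (edgeR adjusted p = 0.000684). Both comparisons use the same M-Z- embryos.

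Hymai had 39.6, 39.4, 37.3, 33.0, 36.9 and 39.7 CPM in female M+Z+ embryos, 37.9, 26.1 and 38.4 CPM in M-Z+ and 66.4, 59.6, 64.2 and 53.9 CPM in M-Z- embryos. Male embryos had 33.9, 36.0, 38.5 and 35.7 CPM in M+Z+, 37.8, 35.6 and 33.4 CPM in M-Z+ and 57.3, 57.8 and 70.3 CPM in M-Z-. In both sexes the M-Z- embryos lay above all the others, and female M-Z+ replicate 2 was the lowest of all embryos. The rise against M+Z+ was 0.69 ± 0.09 (log2, SE; edgeR adjusted p = 0.000219) in females and 0.82 ± 0.08 (adjusted p = 0.000135) in males, or 0.74 without male M-Z- replicate 3 (adjusted p = 0.000268). Against M-Z+ it was 0.85 ± 0.11 (edgeR adjusted p = 0.000429) in females and 0.86 ± 0.09 (adjusted p = 0.000404) in males, or 0.78 without male M-Z- replicate 3 (adjusted p = 0.000684).

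The Hymai counts include reads that Plagl1 transcripts leave on the shared bases, because a read over both genes was counted for each. If Plagl1 reads were spread evenly along its exons, those on the 218 shared bases would equal 53.5 to 69.8% of the Hymai count in female M+Z+ embryos and 74.6 to 92.6% in female M-Z- embryos. In males the corresponding ranges were 63.3 to 77.2% and 78.4 to 85.0%. Taking these reads away left 10.3 to 18.4 CPM in female M+Z+, 2.72 to 13.8 CPM in female M-Z+ and 4.0 to 16.3 CPM in female M-Z- embryos. The male remainders were 8.13 to 13.9 CPM in M+Z+, 8.49 to 9.87 CPM in M-Z+ and 8.65 to 13.3 CPM in M-Z- embryos. The groups then overlapped in both sexes, and no rise of the mean was left against M+Z+ embryos. Against M-Z+ embryos the highest M-Z- remainder was still the larger in both sexes, a difference that was not tested. Even coverage is an assumption, and reads of the 2 genes on the shared bases cannot be told apart, so these values do not show whether the noncoding RNA itself changed.

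Phactr2 stood at 89.9, 95.2, 91.8, 102, 113 and 106 CPM in female M+Z+ embryos and at 100, 98.3 and 105 CPM in M-Z+ embryos. The female M-Z- embryos had 53.9, 55.8, 56.1 and 52.7 CPM, all below every other female embryo. Male M+Z+ embryos had 95.8, 105, 93.3 and 102 CPM, M-Z+ embryos 101, 91.7 and 90.3 CPM and M-Z- embryos 56.9, 46.6 and 46.4 CPM. The male groups also did not overlap between M-Z- and the others. Phactr2 fell by 0.87 ± 0.06 (log2, SE; edgeR adjusted p = 4.92e-08) in female M-Z- against M+Z+ embryos, to 0.547 of the M+Z+ level. In males it fell by 0.95 ± 0.08 (edgeR adjusted p = 4.69e-05), to 0.518 of the M+Z+ level, and by 0.88 without male M-Z- replicate 3 (adjusted p = 0.000103). Against M-Z+ embryos it fell by 0.88 ± 0.06 (edgeR adjusted p = 3.18e-07) in females and by 0.86 ± 0.08 (adjusted p = 0.000404) in males. The male difference was -0.79 without male M-Z- replicate 3 (edgeR adjusted p = 0.000651).

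**Figure D1:**
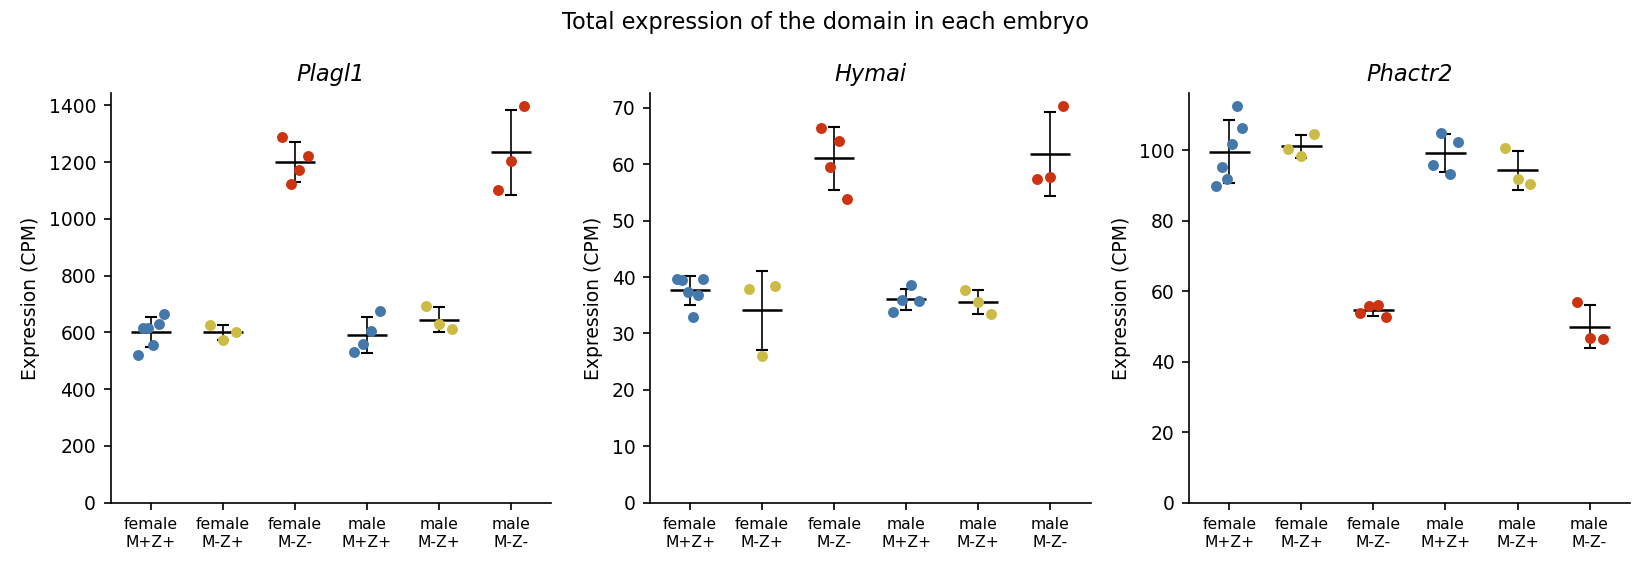
Expression of Plagl1, Hymai and Phactr2 in each embryo, in CPM, by sex and genotype. Points are embryos with the group mean ± SD, and the M-Z- embryos lie above all the others for Plagl1 and Hymai and below all the others for Phactr2.

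Per length, Plagl1 was by far the most abundant of the 3 genes. Scaled to TPM (transcripts per 1000000, from the exonic lengths), female M+Z+ means were 249 ± 27 TPM for Plagl1, 24.4 ± 3.0 TPM for Phactr2 and 16.4 ± 1.2 TPM for Hymai (SD, n = 6). In female M-Z- embryos these levels were 500 ± 27, 13.4 ± 0.69 and 26.9 ± 2.9 TPM (n = 4), so that the Hymai value, shared reads included, stood above that of Phactr2. The order changed in the same way in males, from 237, 23.4 and 15.2 TPM to 478, 11.5 and 25.3 TPM for Plagl1, Phactr2 and Hymai.

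In M-Z+ embryos, which lost the maternal but not the zygotic Zfp57, the log2 differences from M+Z+ in females were -0.01 ± 0.07 for Plagl1, -0.15 ± 0.10 for Hymai and 0.01 ± 0.06 for Phactr2 (SE; edgeR adjusted p = 0.977, 0.774 and 0.983). In males they were 0.10 ± 0.10, -0.04 ± 0.08 and -0.09 ± 0.08 (edgeR adjusted p = 0.823, 0.937 and 0.787). None was called, in comparisons that called 0.0593% of genes in females and 0.048% in males.

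The response to genotype was compared between the sexes with the interaction term of a fit over all 23 embryos. The female minus male difference in the M-Z- response was -0.09 ± 0.11 (log2, SE) for Plagl1, -0.11 ± 0.13 for Hymai and 0.09 ± 0.09 for Phactr2 (edgeR adjusted p = 0.912, 0.909 and 0.889). These differences became -0.01, -0.03 and 0.02 when male M-Z- replicate 3 was left out (edgeR adjusted p = 0.969, 0.939 and 0.932). The interaction called 0% of 17139 genes for M-Z- and 0% for M-Z+ embryos, with 1107 and 625 genes at an unadjusted p below 0.05 by edgeR, and DESeq2 also called 0. Among M+Z+ embryos the female minus male difference was 0.02 ± 0.07 for Plagl1, 0.06 ± 0.09 for Hymai and 0.01 ± 0.06 for Phactr2 (edgeR adjusted p = 0.980, 0.955 and 0.993). At a size of 0.3 this comparison called 0.0817% of genes and no member.

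The allele-assigned reads showed which copy carried each change. In M-Z- embryos Plagl1 was read from both copies, and its gain lay in the maternal reads, as did that of the reads counted for Hymai. The loss of Phactr2 lay in the maternal reads as well.

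Plagl1 had 47, 56, 90, 39, 36 and 43 maternal reads beside 5292, 5833, 5583, 5419, 6600 and 6810 paternal reads in the 6 female M+Z+ embryos. Female M-Z+ embryos had 31, 94 and 45 maternal beside 6028, 5246 and 6166 paternal reads. Female M-Z- embryos had 8471, 6780, 6301 and 7625 maternal beside 7056, 5711, 5304 and 6412 paternal reads. The maternal copy thus gave 54.6, 54.3, 54.3 and 54.3% of the Plagl1 reads of these 4 embryos. Male M+Z+ embryos had 63, 64, 59 and 51 maternal beside 7235, 5131, 5957 and 6560 paternal reads, and male M-Z+ embryos had 41, 22 and 41 beside 6173, 5418 and 6065. Male M-Z- embryos had 5877, 6156 and 7345 maternal beside 4418, 5173 and 6206 paternal reads, which put the maternal share at 57.1, 54.3 and 54.2%. Over all M+Z+ and M-Z+ embryos the maternal share of Plagl1 was 0.404 to 1.76%, so the groups did not overlap.

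In RPM (reads per 1000000 allele-assigned reads of an embryo), the maternal copy of Plagl1 averaged 18.2 RPM in female M+Z+, 20.4 RPM in M-Z+ and 2468 RPM in M-Z- embryos, while the paternal copy averaged 2062, 2090 and 2072 RPM. In males the maternal mean was 19.6 RPM in M+Z+ and 2574 RPM in M-Z- embryos, with 8.93 to 16.6 RPM in the 3 M-Z+ embryos, and the paternal means were 2039, 2304 and 2096 RPM. The maternal Plagl1 reads rose by 7.03 ± 0.21 (log2, SE; edgeR adjusted p = 1.1e-16) in female and by 7.02 ± 0.16 (adjusted p = 8.45e-17) in male M-Z- against M+Z+ embryos. The paternal reads differed by -0.05 ± 0.06 (edgeR adjusted p = 0.901) in females and 0.02 ± 0.10 (adjusted p = 0.997) in males. All 3 members were called in maternal reads in both sexes, against 0.488% of 7788 genes in females and 2.58% of 7601 in males, and no member was called in paternal reads, where 0.103% and 2.49% of all genes were called. Within M-Z- embryos, maternal Plagl1 reads outnumbered paternal reads in 4 of 4 females (maternal to paternal ratio 1.19 ± 0.0063, SD) and in 3 of 3 males (1.23 ± 0.083). Without male M-Z- replicate 3 the male difference was 6.95 in maternal reads (adjusted p = 2.29e-17) and -0.09 in paternal reads (adjusted p = 0.757).

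Hymai had 0, 1, 1, 3, 0 and 0 maternal beside 230, 210, 209, 174, 262 and 258 paternal reads in female M+Z+ embryos, and 2, 3 and 0 beside 224, 140 and 242 in M-Z+ embryos. Female M-Z- embryos had 195, 163, 136 and 135 maternal beside 225, 165, 182 and 149 paternal reads. Male M+Z+ embryos had 2, 4, 0 and 0 maternal beside 276, 188, 211 and 175 paternal reads, and male M-Z+ embryos had 0, 0 and 0 beside 227, 191 and 201. Male M-Z- embryos had 98, 134 and 168 maternal beside 133, 144 and 188 paternal reads. Maternal Hymai reads were thus at most 4 per embryo where Zfp57 was retained in the zygote and at least 98 where it was not. In embryos with a count of 0, the floor of 3 reads equals a maternal share of 1.15 to 1.71%, and the 95% interval reached 1.45 to 2.15%. Such limits cover counting error only. Unlike Plagl1, Hymai maternal reads stayed below paternal reads in all 7 M-Z- embryos (ratio 0.877 ± 0.10 in females and 0.854 ± 0.10 in males, SD), although the difference between the genes was not tested.

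Maternal Hymai reads rose in the M-Z- embryos of both sexes (edgeR adjusted p = 4.32e-13 in females and 8.97e-09 in males). The fitted log2 changes of 7.27 ± 0.34 and 6.62 ± 0.42 (SE) rest on the few M+Z+ reads just given and depend on the prior count. Paternal Hymai reads differed by -0.40 ± 0.13 in females (edgeR unadjusted p = 0.00743, adjusted p = 0.311). The male value was -0.18 ± 0.13 (edgeR adjusted p = 0.643), and neither was called. Leaving out male M-Z- replicate 3 gave male values of 6.45 in maternal reads (edgeR adjusted p = 4.5e-08) and -0.32 in paternal reads (adjusted p = 0.249). Whether the allele tables counted reads on the shared bases for both genes is not given in the sources used here.

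Phactr2 was read mainly from the maternal copy in control embryos. Female M+Z+ embryos had 836, 888, 806, 960, 1156 and 992 maternal beside 334, 334, 338, 388, 444 and 394 paternal reads. Female M-Z+ embryos had 912, 891 and 1017 beside 408, 378 and 440. In female M-Z- embryos the counts were 401, 389, 342 and 379 maternal beside 362, 375, 370 and 377 paternal reads. The maternal reads of every M-Z- female lay below those of every other female, while paternal reads overlapped. Male M+Z+ embryos had 1240, 943, 910 and 895 maternal beside 514, 367, 329 and 390 paternal reads, and male M-Z+ embryos 823, 773 and 811 beside 324, 278 and 317. Male M-Z- embryos had 343, 270 and 297 maternal beside 317, 264 and 287 paternal reads. The maternal share was 69.1 to 73.5% in all M+Z+ and M-Z+ embryos and 48.0 to 52.6% in all M-Z- embryos.

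With the genotypes in the order M+Z+, M-Z+, M-Z-, maternal Phactr2 reads averaged 327, 338 and 128 RPM in females and paternal reads 129, 147 and 127 RPM. In males the maternal means were 325, 314 and 121 and the paternal means 130, 120 and 116. Maternal Phactr2 reads fell by 1.40 ± 0.07 (log2, SE; edgeR adjusted p = 4.17e-12) in females, to 0.379 of the M+Z+ level in the fit, and by 1.45 ± 0.10 (adjusted p = 6.69e-09) in males, to 0.366. Paternal reads differed by -0.09 ± 0.08 (edgeR adjusted p = 0.783) and -0.19 ± 0.10 (adjusted p = 0.478). With male M-Z- replicate 3 left out, the male values were -1.41 in maternal reads (edgeR adjusted p = 6.06e-08) and -0.17 in paternal reads (adjusted p = 0.523). The maternal to paternal ratio went from 2.52 ± 0.097 to 1.02 ± 0.076 in females and from 2.51 ± 0.20 to 1.05 ± 0.031 in males (SD).

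**Figure D2:**
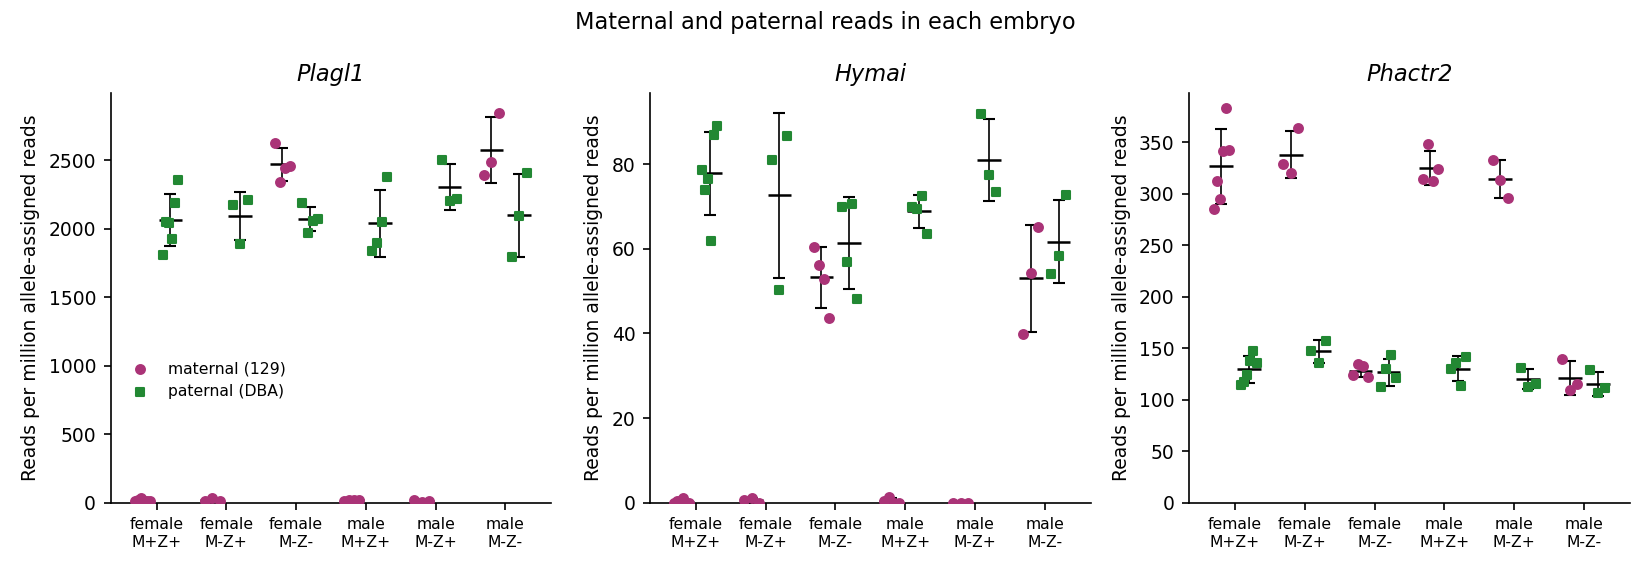
Maternal and paternal reads of Plagl1, Hymai and Phactr2 in RPM, by sex and genotype, 1 point per embryo with the group mean ± SD. Maternal reads of Plagl1 and Hymai leave the bottom of the scale in M-Z- embryos and reach the range of the paternal reads, while maternal reads of Phactr2 come down to the paternal level.

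In M-Z+ embryos no allele of any member was called, in comparisons that called 0.282% of genes in maternal and 0% in paternal reads of females, and 0.25% and 0.0263% in males. Where 0 genes were called, 457 had an unadjusted edgeR p below 0.05. Maternal Plagl1 reads differed by 0.12 ± 0.29 (edgeR adjusted p = 0.977) in female and by -0.56 ± 0.20 (unadjusted p = 0.0104, adjusted p = 0.513) in male M-Z+ against M+Z+ embryos. Maternal Phactr2 reads differed by 0.00 ± 0.08 (edgeR adjusted p = 1) and -0.09 ± 0.09 (adjusted p = 0.87).

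The balance between the copies was also expressed as a P-score, the paternal share of allele-assigned reads minus 0.5, which is 0.5 for purely paternal, -0.5 for purely maternal and 0 for equal expression. The P-score of Plagl1 was 0.491 ± 0.0038 in female M+Z+, 0.490 ± 0.0067 in M-Z+ and -0.0436 ± 0.0013 in M-Z- embryos (SD; n = 6, 3 and 4), and 0.490 ± 0.0020, 0.494 ± 0.0015 and -0.0521 ± 0.016 in males (n = 4, 3 and 3). For Hymai it was 0.496 ± 0.0066, 0.490 ± 0.011 and 0.0339 ± 0.029 in females and 0.493 ± 0.0098, 0.5 ± 0 and 0.0406 ± 0.031 in males. For Phactr2 it was -0.216 ± 0.0078, -0.197 ± 0.0057 and -0.00409 ± 0.019 in females and -0.214 ± 0.016, -0.224 ± 0.010 and -0.0113 ± 0.0074 in males. The M-Z- scores of the 3 genes thus came close to 0 from opposite sides. As a baseline, the median P-score over 6480 autosomal genes lay between -0.0059 and 0 in every embryo. Plagl1 in M-Z- embryos was below that range, and the cause was not tested.

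Each member differed in P-score between M-Z- and M+Z+ embryos in both sexes, with a two-sided exact permutation p of 0.00476 in females and 0.0286 in males, the smallest that these group sizes allow (adjusted p = 0.019 and 0.049 over 12 tests). In the fit of the allele ratio across all genes, the P-score difference was -0.535 for Plagl1, -0.462 for Hymai and 0.212 for Phactr2 in females (edgeR adjusted p = 2.47e-10, 9.87e-10 and 9.87e-10). In males it was -0.543, -0.452 and 0.203 (edgeR adjusted p = 1.67e-19, 2.81e-10 and 5.11e-09). All 3 members were called, against 0.401% of 6486 genes in females and 2.53% of 6441 in males. Among all called genes 6 were higher and 20 lower in females, and 7 were higher and 156 lower in males. The part of strain background in these calls was not tested. Without male M-Z- replicate 3 the male differences were -0.548, -0.446 and 0.202 (edgeR adjusted p = 1.64e-16, 1.95e-08 and 2.24e-07).

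In M-Z+ embryos 0 members were called in the allele ratio, a comparison that called 0.185% of the genes of females and 0.171% of those of males. The P-score of Phactr2 was 0.019 higher in female M-Z+ than in M+Z+ embryos (exact permutation p = 0.0119, adjusted p = 0.0357 over 12 tests), but 0.0096 lower in males (exact permutation p = 0.457). Without female M-Z+ replicate 1 the female difference was 0.016 (exact permutation p = 0.0714), and across all genes its adjusted p was 0.836 by edgeR. The P-score of Plagl1 was 0.0038 higher in male M-Z+ embryos (exact permutation p = 0.0571, adjusted p = 0.0857). Between the sexes, 9 comparisons of P-scores within a genotype gave a smallest exact permutation p of 0.1, which is the smallest that 3 against 3 embryos allow, and adjusted p-values of at least 0.841.

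**Figure D3:**
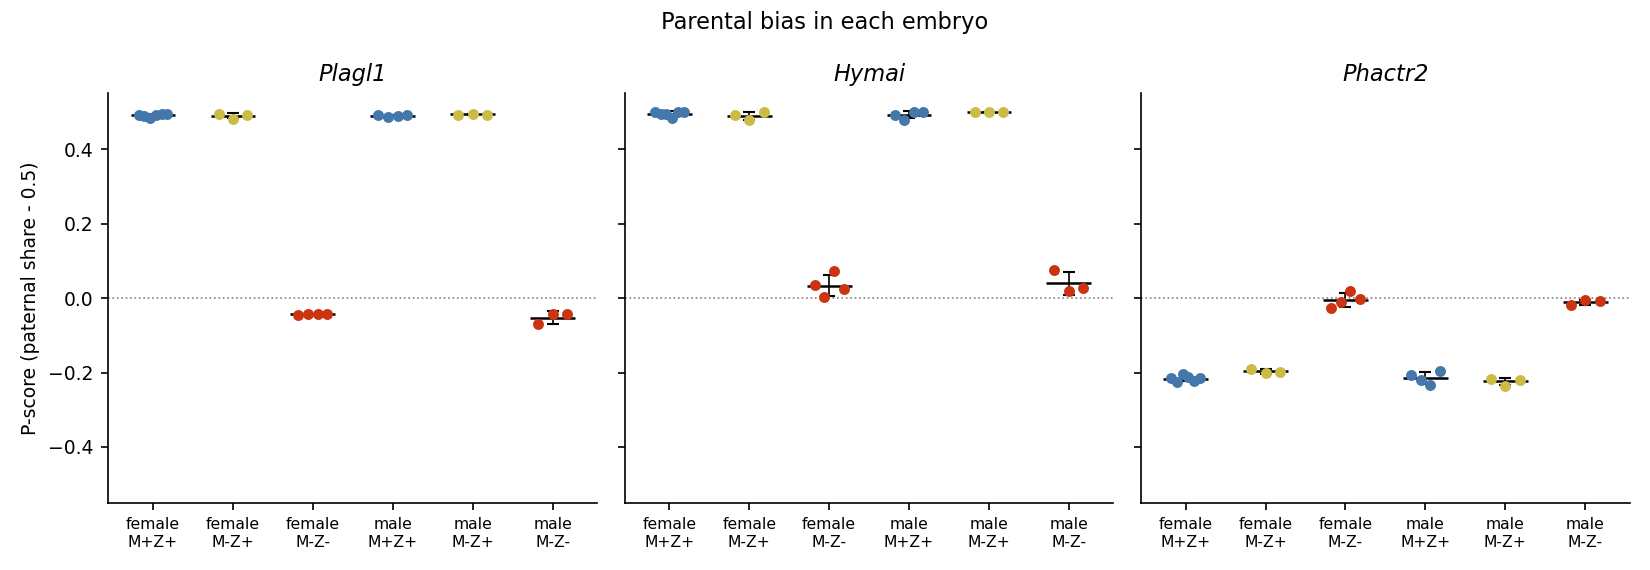
P-scores of Plagl1, Hymai and Phactr2 in each embryo by sex and genotype, where 0.5 is purely paternal, 0 equal and -0.5 purely maternal expression, with the group mean ± SD. Plagl1 and Hymai drop from near 0.5 to near 0 in M-Z- embryos and Phactr2 comes up from about -0.2 to near 0.

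Beyond the 3 genes, 13 other genes of the tables overlapped the interval from 1 Mb before to 1 Mb after Plagl1, and 8 of them had enough allele-assigned reads to be tested. Of the other 5, Gm40602, Zc2hc1b and Gm32172 had too few reads for the expression test and B230208H11Rik had enough in females alone, where it was at -0.51 in M-Z- against M+Z+ embryos (edgeR adjusted p = 0.555). Stx11 was at -0.13 in females (edgeR adjusted p = 0.754) and -0.79 in males (adjusted p = 0.129), and neither gene was called. Maternal reads of Ltv1, Fuca2 and Hivep2 fell in the M-Z- embryos of both sexes, and their paternal reads were not called. These are 3 of 8 genes, beside 0.488% of all genes called in maternal reads of females and 2.58% in males. Among all those called genes 10 were lower and 28 higher in females, and 30 were lower and 166 higher in males. Ltv1, whose product works in assembly of the small ribosomal subunit, lies 46.9 kb beyond Plagl1 and between it and Phactr2. Its maternal reads averaged 107 RPM in female M+Z+ and 76.1 in M-Z- embryos, with paternal means of 76.8 and 75.6. The maternal difference was -0.55 ± 0.08 (log2, SE; edgeR adjusted p = 0.000131) in females and -0.61 ± 0.12 (adjusted p = 0.00341) in males, or -0.74 without male M-Z- replicate 3 (adjusted p = 0.000538). With library totals in place of trimmed-mean scaling, the female value was -0.50 and just under the size threshold of 0.5.

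Fuca2, a secreted fucosidase gene 369 kb beyond Plagl1, differed by -0.67 ± 0.13 (log2, SE; edgeR adjusted p = 0.00618) in maternal reads of females and by -0.71 ± 0.17 (adjusted p = 0.0269) in males. The male call was lost when the M-Z- and M+Z+ groups were fitted alone (adjusted p = 0.0573) and without male M+Z+ replicate 2 or 3 or male M-Z- replicate 1 or 2 (adjusted p of 0.0641 to 0.124), and was -0.84 without male M-Z- replicate 3 (adjusted p = 0.0109). Hivep2, which encodes a zinc finger transcription factor and lies 834 kb beyond Plagl1, differed by -0.71 ± 0.11 (edgeR adjusted p = 0.000446) in females and by -0.70 ± 0.13 (adjusted p = 0.00169) in males, or -0.83 without male M-Z- replicate 3 (adjusted p = 0.000365). In total RNA these falls were smaller. Hivep2 was at -0.46 (edgeR adjusted p = 0.00104), Fuca2 at -0.35 (adjusted p = 0.00929) and Ltv1 at -0.33 (adjusted p = 0.000422) in females, all under the size threshold. Male Hivep2 RNA stood at -0.47 against M+Z+ (edgeR adjusted p = 0.0201) and at -0.53 without male M-Z- replicate 3 (adjusted p = 0.00543), which passed it. Against M-Z+ embryos male Hivep2 RNA was called, at -0.53 (edgeR adjusted p = 0.0272), but the call was lost in 6 of 10 fits that left out an embryo, with the replicate block, with 2 groups alone and with only the M+Z+ embryos numbered 4 and above (adjusted p of 0.0569 to 0.182).

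Over the 8 tested genes (Utrn, Sf3b5, Ltv1, Fuca2, Pex3, Adat2, Aig1 and Hivep2), the maternal reads of M-Z- less those of M+Z+ embryos gave a value below 0 for 8 of 8 in females and 7 of 8 in males, Utrn being the exception at 0.01. The median was -0.38 in females and -0.32 in males, beside 0.00 over all genes in both sexes. On chromosome 10, in ranges of distance set after the values were seen, the median at 1 to 5 Mb was 0.11 over 7 genes in females and 0.06 over 6 genes in males, and beyond 5 Mb it was -0.02 over 243 and 0.04 over 237 genes. The P-score was higher in M-Z- embryos for 8 of 8 genes in both sexes, beside 47.13% of all genes in females and 47.12% in males. Paternal reads had a median difference of -0.02 in females, with 4 of 8 above 0, and of 0.11 in males, with 6 of 8 above 0. Only Fuca2 in males was called in the ratio (0.155, edgeR adjusted p = 0.00149, and 0.157, adjusted p = 0.0113, without male M-Z- replicate 3), while in females Sf3b5 (0.0746) and Ltv1 (0.0820) had an adjusted p of 0.0256 each and a difference under 0.1. These genes share the chromosome copy with the members and with one another, so they are not independent of each other.

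**Figure D4:**
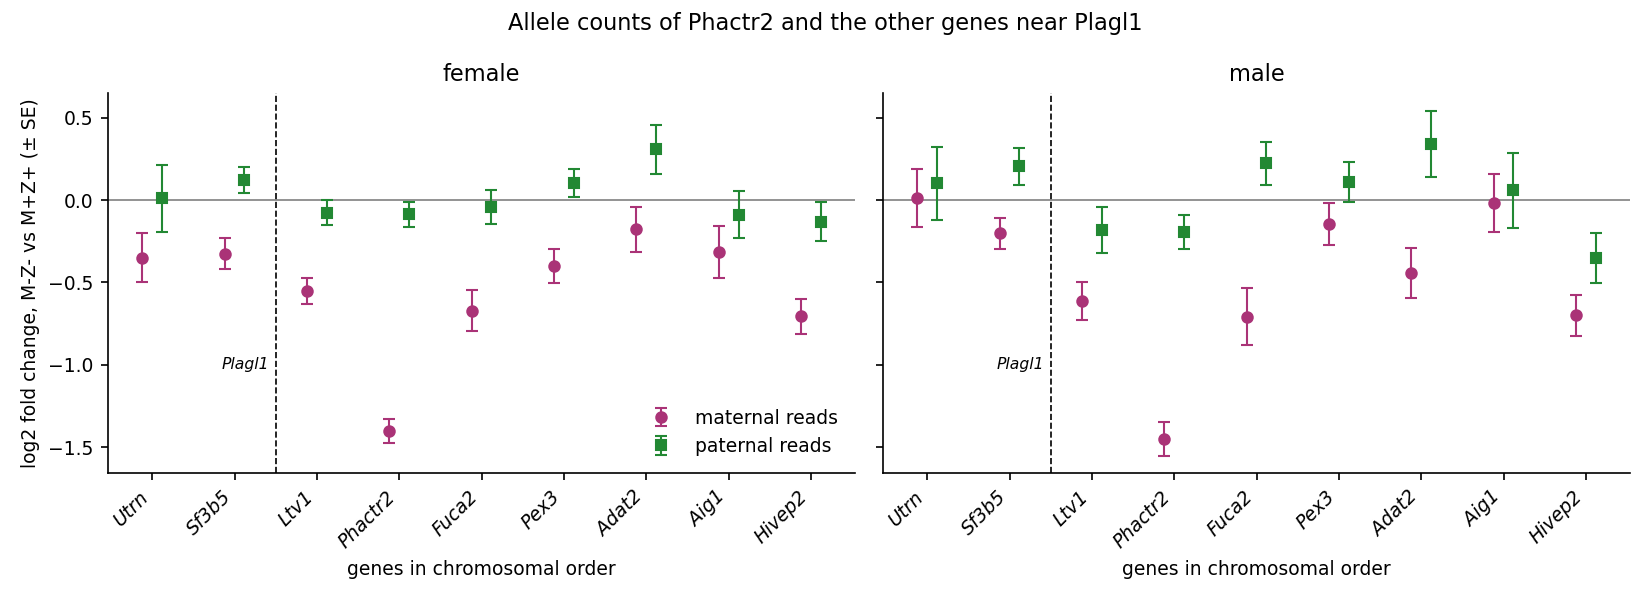
Differences in maternal and paternal reads between M-Z- and M+Z+ embryos (log2) with their SE for Phactr2 and the 8 tested neighbours in chromosomal order, females left and males right, and the dashed line marks the place of Plagl1. Phactr2 has the lowest maternal value in both sexes, the maternal values of the neighbours lie mostly below 0, and paternal values lie on both sides of 0, with 6 of 8 neighbours above it in males.

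Genes tied to Plagl1 by earlier work were taken from lists. Among 12 imprinted genes of a growth network described around Plagl1, 3 rose and 2 fell in female M-Z- against M+Z+ embryos, and 3 rose and 1 fell in males, with a median log2 difference of 0.01 and 0.10 beside 0.00 for all genes in both sexes. Of all genes tested, 0.563% were called in females and 0.39% in males. Mest, an imprinted hydrolase-fold gene, rose by 0.89 (edgeR adjusted p = 9.7e-08) in females and 0.86 (adjusted p = 0.00387) in males. Peg3, an imprinted zinc finger gene, rose by 0.84 (edgeR adjusted p = 1.55e-06) and 0.79 (adjusted p = 0.000294), and the non-coding RNA Meg3 by 1.05 (adjusted p = 3.34e-06) and 1.36 (adjusted p = 0.00514). Dlk1, a membrane ligand related to Notch ligands, fell by 2.46 (edgeR adjusted p = 1.25e-09) and 2.43 (adjusted p = 7.9e-06). Igf2r, the receptor that clears IGF2, fell by 0.61 in females (edgeR adjusted p = 0.000198) and stood at -0.31 in males (adjusted p = 0.157). Leaving out male M-Z- replicate 3 gave male values of 1.00 for Mest, 0.80 for Peg3, 1.47 for Meg3 and -2.64 for Dlk1 (edgeR adjusted p = 0.000137, 0.000395, 0.0012 and 6.7e-07), and -0.27 for Igf2r (adjusted p = 0.12). H19, the most abundant gene of the list, was at 0.05 and 0.16 and was not called. These genes are imprinted themselves, so the list does not isolate a response to Plagl1.

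Of 10 genes described as targets of the Plagl1 protein, 1 fell in females and 0 in males by edgeR, beside 0.563% and 0.39% of all genes. At an unadjusted p below 0.05 there were 1 of 10 in females and 2 of 10 in males, and 2611 of 16871 and 2825 of 16664 genes over the whole tables. The most abundant, the transcription factor gene Tcf4, was at -0.10 in females and -0.06 in males and was not called. The gene that fell was Rasgrf1, an imprinted exchange factor gene, at -1.70 in females (edgeR adjusted p = 0.0131) and -0.92 in males (adjusted p = 0.291), and it lost the call without female M-Z- replicate 2 (adjusted p = 0.0616), with a replicate block (0.144) and with only the M+Z+ embryos numbered 4 and above (0.0563). Without male M-Z- replicate 3 the male value was -1.69 and passed (adjusted p = 0.0365). Rasgrf1 was a gene of low level here. The study placed it under its threshold of 1 TPM in all embryos and did not judge changes in its level. Of 12 extracellular matrix genes, the other 2 genes of the PLAG family, the other 3 of the PHACTR family and 6 tested genes of protein phosphatase 1 and actin, 0 were called by edgeR in either sex, and at an unadjusted p below 0.05 there were 1, 0, 1 and 1 genes of these lists in females and 0, 0, 0 and 2 in males, shares to be read against those just given for all genes. The most abundant of these, Col3a1, Plagl2, Phactr4 and Actg1, were at -0.05, 0.01, 0.10 and 0.09 in females and at -0.03, -0.25, 0.06 and 0.36 in males. By edgeR no gene of any of these lists was called in M-Z+ against M+Z+ embryos, although Meg3 was called in males without male M+Z+ replicate 4 (0.73, adjusted p = 0.0493) and with the replicate block (0.74, adjusted p = 0.0435).

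Across the 23 embryos the genes whose log2(CPM + 1) values ran closest to those of Plagl1 were Rian (Pearson r = 0.972), Inpp5f (0.968), AF357359 (0.964), Mirg (0.944) and Ddc (0.937), among 15501 genes. For Phactr2 they were Blcap (0.964), Zim1 (0.938), Dlk1 (0.936), Rtl1 (0.935) and Zfp57 itself (0.922). The embryos form separate genotype groups, so these values include that shared separation, and correlation within a group was not tested. In P-score, the genes closest to Plagl1 among 6273 were Usp29 (mean absolute difference 0.0456), Dlk1 (0.0691), Gm30189 (0.0786), Peg13 (0.0838) and Snhg14 (0.106).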

How the data were processed

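RNA was taken from flash-frozen whole E13.5 embryos. Per the labels and the study's methods, the authors aligned reads to mm9 with STAR 2.7.8a and counted unique reads per gene with featureCounts (Subread 2.0.1). The deposited values are raw counts per gene and, from alignment to a variant-masked genome split by strain, raw counts of maternal and paternal reads. In the gene-level tables a read over several genes was counted for each. The library kit does not mark strand while a strand setting was used for counting. In the female allele counts, 2 column headings each name 2 M+Z+ embryos (3a, 3b, 4a, 4b), whose counts differed beyond sampling noise.

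All genes were fitted with edgeR 4.0.16 (R 4.3.3) on counts, with TMM scaling, filterByExpr and Benjamini-Hochberg adjustment, the 3 genotypes of a sex in 1 fit. Allele fits took library sizes from the sum of both alleles, and the ratio fit had an effect per embryo and kept autosomal genes whose mean allele count reached 20. The ratio was called at a P-score difference of at least 0.1. A first run used edgeR's robust option, which was replaced by the default after its results were seen and is kept as an alternative. P-scores required more than 10 allele reads and were compared by exact permutation (scipy 1.17.1). CPM was computed from the counts. Intervals and floors (3 reads of the total) cover counting error only. Scripts were tested on simulated data. Alternatives were DESeq2 1.42.0, RLE scaling, library totals, no filter, 2 groups alone, a replicate block, each embryo left out, and, chosen after seeing the data, robust edgeR, summed columns of a shared heading, and M+Z+ embryos numbered 4 and above.

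Named were the 3 members, Zfp57, all genes within 1 Mb of Plagl1, called or most abundant list members, and the 5 genes most alike. Members and lists were chosen with earlier results of these data known. Mkl1 and Mkl2, of the actin list, had no rows under these symbols.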

Additional observations from a re-analysis of the deposited data

Results flagged for a closer look

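Single embryos that stood apart from the rest of their group were sought in 36 sets of values of the 3 genes, each from 4 to 6 embryos, and 4 were found, where chance flags about 1 in 20. The Plagl1 P-score of female M-Z- replicate 1 was -0.0456, below the -0.0432 to -0.0428 of the other 3 embryos. The Hymai P-score of female M+Z+ embryo 3b was 0.483, below the 0.495 to 0.5 of the other embryos, and its maternal Hymai reads, 3 in number, came to 1.07 RPM (reads per 1000000 allele-assigned reads) against 0 to 0.366. Maternal Plagl1 reads of female M+Z+ embryo 3a came to 33.0 RPM, above the 11.9 to 19.7 RPM of the others.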

How the results depend on the processing

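Of 4235 values recomputed under an alternative, 4149 kept their side of the threshold (counts within 1.5 times) and 86 changed. No called value changed sign, whereas 107 values that were not called did, among them the differences of Plagl1 and Hymai in M-Z+ embryos and of paternal Plagl1 reads in males. In M-Z- against M+Z+ embryos the calls of Plagl1, Hymai and Phactr2 in maternal reads and in the allele ratio held under each alternative run for them. These were robust edgeR, 2 groups alone, each embryo left out, summed columns in females and, for maternal reads only, library totals. DESeq2, RLE scaling, no filter and the replicate block were run on expression alone. The expression calls of the 3 genes held under every alternative but one, chosen after seeing the data. That alternative kept only the M+Z+ embryos numbered 4 and above and lost the male calls. It leaves 1 male M+Z+ embryo, assumed to vary like the other groups. The male log2 differences in expression were then 0.93 for Plagl1, 0.85 for Hymai and -0.97 for Phactr2. The study's figures name the M+Z+ embryos in a primed and an unprimed series, and the M-Z+ and M-Z- embryos continue the unprimed numbers. How the series match the replicate numbers was not given, and a difference between the series was not tested. Leaving out each embryo in turn, the differences in expression ran from 0.96 to 1.03 (Plagl1), 0.65 to 0.74 (Hymai) and -0.89 to -0.83 (Phactr2) in females, and from 1.03 to 1.19, 0.74 to 0.88 and -1.03 to -0.88 in males. Male P-score differences ran from -0.548 to -0.533 for Plagl1, -0.470 to -0.441 for Hymai and 0.197 to 0.209 for Phactr2, where the smaller groups could not reach an exact permutation p below 0.0667 to 0.1. The Phactr2 difference in female M-Z+ embryos ran from 0.0160 to 0.0216. Embryos of the same replicate number in different groups had correlations of deviations of -0.383 to 0.318 in females and -0.228 to 0.523 in males. Embryos of unlike numbers were not compared, so whether replicate numbers pair embryos was not tested. With a replicate block the members kept their calls in expression. Numbers of called genes moved more. In female M-Z- against M+Z+ embryos 95 genes became 52 with the replicate block and 143 with DESeq2, and in female M-Z+ embryos 10 became 4 and, with 2 groups alone, 3. In male M-Z- against M+Z+ embryos 65 became 128 with the block, 99 without a filter, 40 with 2 groups alone, 182 with DESeq2 and 3 with M+Z+ embryos numbered 4 and above, and 41 to 899 when an embryo was left out (leaving out M+Z+ replicate 1 or 2 gave 41, M-Z+ replicate 3 gave 43, M+Z+ replicate 4 gave 144 and M-Z- replicate 3 gave 899). In male M-Z- against M+Z+ embryos the calls of Zfp57, Mest, Peg3 and Meg3 were also lost with M+Z+ embryos numbered 4 and above. Over the 8 alternatives other than leaving out an embryo, this one included, the Zfp57 difference ran from -1.39 to -1.14. Those of Mest, Peg3 and Meg3 ran from 0.82 to 0.87, 0.73 to 0.81 and 0.80 to 1.60. With an embryo left out, female calls ranged from 55 (without M-Z- replicate 2) to 116 for M-Z- and from 5 (without M+Z+ replicate 6 or M-Z+ replicate 1) to 12 for M-Z+ embryos. Female M-Z+ maternal calls ranged from 14 (without M-Z+ replicate 3) to 67 (without M+Z+ replicate 2), and paternal calls from 0 to 5 (without M-Z+ replicate 1). In male M-Z+ embryos the expression, maternal and paternal calls reached 54, 50 and 13, all without M+Z+ replicate 4, and their lowest were 0, 12 and 0. In male M-Z+ embryos 8 became 41 with the block, 13 with DESeq2 and 0 with M+Z+ embryos numbered 4 and above, and in male M-Z- against M-Z+ embryos 25 became 16, 57 and 16 with 2 groups alone, DESeq2 and those M+Z+ embryos, and 17 to 376 when an embryo was left out, the highest without male M-Z- replicate 3. Paternal calls in female M-Z- embryos went from 8 to 13 with robust edgeR, and in M-Z+ embryos from 0 to 1 with library totals in females and from 2 to 0 with robust edgeR in males. Robust edgeR also called the female allele ratio of Fuca2 (0.11, adjusted p = 0.0191). The cause of these shifts was not tested. Depth limits the maternal reads of Hymai, at most 4 per embryo outside M-Z-.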
